A study of Mus musculus with 8 samples.

Results

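Malectin (Mlec) is a lectin of the endoplasmic reticulum (ER), and it is described here with 9 genes of the same glycoprotein quality control system. These are the oligosaccharyltransferase genes Rpn1, Rpn2, Ddost, Stt3a and Stt3b, the chaperone genes Calr and Canx, and the glucosidase II genes Ganab and Prkcsh. The 10 genes were taken by symbol from a table of 24067 genes, and all 10 were found. They were chosen by name after earlier results of these data were known, with Mlec selected on its difference between the groups compared here. Differences of these 10 genes between the groups are therefore given as description, with no p-value.

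Articular chondrocytes were cultured from the knee joint surfaces (femoral condyles, tibial plateaus) of ICR mice at an age of 5 days. The miR-204 group (4 libraries) received 50 nM of miR-204, and the miR-Ctrl group (4 libraries) received 50 nM of the control miR-Ctrl. In both groups transfection lasted 24 h, the cells were collected 24 h later, and culture was in serum-containing medium at low oxygen. The labels name no allele beside the transfection, and the sources used here do not say how many animals a library came from. Nothing in the labels says that libraries came from separate cultures, so the spread between them, against which each test is set, may be technical. Values are FPKM, fragments scaled to transcript length and to library size, so levels may be set side by side between genes.

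Proteins that enter the ER receive a preassembled sugar tree on asparagine, transferred by the oligosaccharyltransferase. Glucosidases then trim its glucoses, and calnexin and calreticulin hold proteins whose tree keeps a single glucose until they fold. Malectin, first described in the frog Xenopus laevis, binds trees that still carry a pair of glucoses, and in human cells it associates with ribophorin I, the product of RPN1. Cartilage cells send large amounts of glycosylated collagen and proteoglycan through this route.

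The libraries matched their label as chondrocytes. All 8 chondrocyte markers were present, with a summed level of 10460 to 27012 FPKM in miR-204 libraries and 10697 to 34650 FPKM in miR-Ctrl libraries, and Col2a1 was never below 7836 FPKM. Fibroblast markers were also high (5 of 5 present, summed level 1930 to 4257 FPKM with miR-204 and 1847 to 3938 with miR-Ctrl). The 5 macrophage markers summed to 8.54 to 16 FPKM with miR-204 and 3.20 to 12.3 with miR-Ctrl, with Ptprc and Adgre1 at 0 in at least 1 library and no higher than 0.0309 and 0.188 FPKM. The 4 endothelial markers summed to at most 0.169 FPKM with miR-204 and 0.0880 with miR-Ctrl, each being at 0 in at least 1 library. The 4 muscle markers summed to at most 0.886 FPKM with miR-204 and 0.644 with miR-Ctrl, with Myod1 and Ckm at 0 in at least 1 library. The 4 osteoblast markers summed to 7.05 to 23.6 FPKM with miR-204 and 5.22 to 22.8 with miR-Ctrl. In both groups the replicate 2 library had the lowest chondrocyte and the highest osteoblast sum. Within pairs of equal replicate number, the miR-204 library had the lower chondrocyte sum in 4 of 4 pairs and the higher macrophage and osteoblast sums in 4 of 4 pairs each. Single markers did not all follow these sums. Col2a1, Sox9, Hapln1 and Comp were lower with miR-204 in 4 of 4 pairs, but Matn3 was higher in 4 of 4. Cd68 and Lyz2 were higher in 4 of 4 pairs, but Adgre1, a low gene, was lower in 4 of 4. The means of Bglap, Ibsp and Dmp1 were higher with miR-204, but that of Sp7 was lower (2.58 against 2.85 FPKM). None of these 4 osteoblast markers differed in the same direction in 4 of 4 pairs. The means of Ibsp were 4.93 ± 6.36 FPKM with miR-204 and 3.65 ± 5.67 FPKM with miR-Ctrl (SD). In each group its highest value was that of replicate 2, at 14.3 FPKM with miR-204 and 12.1 FPKM with miR-Ctrl. In RNA from whole cultures, fewer cells of a type and less RNA per cell cannot be told apart, and the part of cell mixture in the values below was not tested. Depth, read from steps between low FPKM values, was 0.771 to 1 times that of miR-Ctrl replicate 1.

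The mature miR-204-5p and its matches in the 3′ untranslated regions (UTRs) of the 10 genes are shown because a microRNA acts mainly through bases 2 to 8, its seed. The miRNA sequence is from RefSeq (GRCm38.p6, chr19:22750610-22750631, plus strand), with the seed in capitals. The 3′ UTR stretches are from the GENCODE M21 transcripts (mm10), with the bases that match the seed in capitals. The labels do not say which arm was transfected, and the 5p arm was taken.
miR-204-5p: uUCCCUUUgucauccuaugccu
Mlec, 7mer-m8 match: ccagctgcaataAAAGGGAttttctatgtc
Mlec, 8mer match: taataaaaactaAAAGGGAAgaggaagcag
Mlec, 7mer-A1 match: aagaggaagcagAAGGGAAggagtgtggcg
Stt3b, 7mer-A1 match: acgcagaagattAAGGGAAagcccttacgg
Ganab, 6mer match: cccttacttggtAAGGGAcaaatggatcaa

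An 8mer (AAAGGGAA) pairs with the whole seed and has an A opposite base 1, a 7mer-m8 (AAAGGGA) lacks that A, a 7mer-A1 (AAGGGAA) lacks the match to base 8, and a 6mer (AAGGGA) lacks both. Mlec held 3 of the 5 matches, all within exon 5, the last exon, on the minus strand. Its 7mer-m8 lay at chr5:115146407-115146413, its 8mer at chr5:115145676-115145683 and its 7mer-A1 at chr5:115145659-115145665. Counted from the stop codon, the 8mer covered bases 2232 to 2239 and the 7mer-A1 bases 2250 to 2256 of a 3′ UTR of 4934 bases. Stt3b had a 7mer-A1 in exon 16 (chr9:115243141-115243147, minus strand) and Ganab a 6mer in exon 25 (chr19:8916232-8916237, plus strand). The other 7 genes held no match. Among 11216 tested genes with an annotated 3′ UTR, 6.93% had an 8mer as their best match and 24.0% had a 7mer or 8mer. Longer UTRs hold more words of any kind, and that of Mlec was the longest of the 10, against a median of 1190.5 bases over the tested genes. Stt3a, with the next longest at 3580 bases, and Canx, with 2321 bases, held none.

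**Figure D1:**
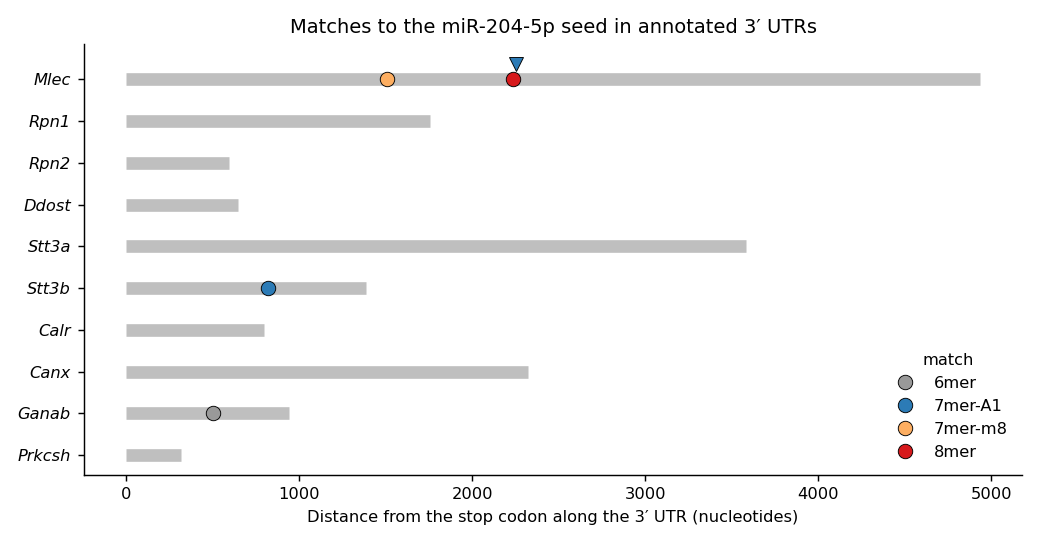
Matches to the miR-204-5p seed along the 3′ UTR (longest GENCODE model) of the 10 genes. Grey bars run from the stop codon (0) to the UTR's end in nucleotides, and symbols mark matches, coloured by kind. Mlec holds an 8mer, a 7mer-m8 and a 7mer-A1 (triangle, drawn above the bar because it lies beside the 8mer), Stt3b a 7mer-A1 and Ganab a 6mer.

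Mlec (gene ID 109154, chr5:115142981-115158179, minus strand), which was chosen on this contrast, was the only 1 of the 10 genes whose groups did not overlap. It was at 38.9, 37.7, 37.0 and 38.2 FPKM in miR-204 replicates 1 to 4, against 70.9, 69.8, 71.0 and 68.7 FPKM in miR-Ctrl replicates 1 to 4. Every miR-204 library was below every miR-Ctrl library, and within a group the libraries lay close together. The means were 38.0 ± 0.793 FPKM with miR-204 and 70.1 ± 1.08 FPKM with miR-Ctrl (SD, n = 4 each), a change of −45.8%. On the log2(FPKM + 1) scale the difference was −0.87 ± 0.045 (SE), and it was −0.85, −0.87, −0.92 and −0.83 within the pairs of equal replicate number. This difference ranked 20 from the lowest among 11612 tested genes.

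The catalytic subunits of the oligosaccharyltransferase showed no such difference. Stt3a (16430), the catalytic subunit of the complex that works at the translocon while proteins are being made, was at 152, 132, 150.2 and 143 FPKM with miR-204, against 154, 125, 147 and 148 FPKM with miR-Ctrl. Stt3b (68292), the catalytic subunit of the complex that also acts after synthesis, was at 61.5, 62.0, 63.5 and 64.2 FPKM with miR-204, against 60.6, 63.7, 62.6 and 64.9 FPKM with miR-Ctrl. The groups overlapped for both genes. The log2 differences were 0.012 ± 0.083 for Stt3a and −0.0029 ± 0.047 for Stt3b (SE). Stt3b, which carries a 7mer-A1, was at 62.8 ± 1.28 FPKM with miR-204 and 63.0 ± 1.81 FPKM with miR-Ctrl. The ratio of Stt3a to Stt3b within a library was 2.30 ± 0.15 with miR-204 and 2.28 ± 0.241 with miR-Ctrl (SD, n = 4 each).

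The non-catalytic subunits overlapped between the groups as well. Rpn1 (103963), which encodes ribophorin I, was at 87.5, 84.8, 81.0 and 80.8 FPKM with miR-204, against 85.7, 89.9, 79.4 and 82.8 FPKM with miR-Ctrl. Rpn2 (20014), which encodes ribophorin II, was at 202, 177, 179 and 178 FPKM with miR-204, against 193, 187, 173 and 175 FPKM with miR-Ctrl. Their log2 differences were −0.015 ± 0.059 and 0.016 ± 0.068 (SE), each smaller than its error. In both groups the highest Rpn2 value was that of replicate 1. Rpn2 shares 144 annotated exon bases with Mroh8 and Rpn1 131 with Mir6376, both on the opposite strand. The sources used here do not say whether the counting used strand, so reads of these partners cannot be told apart with certainty.

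Ddost (13200), which encodes the membrane subunit OST48, had the largest positive difference of the 10. It was at 146, 137, 132 and 131 FPKM with miR-204, against 132, 134, 120.2 and 121 FPKM with miR-Ctrl. The miR-204 library was higher in 4 of 4 pairs, yet the groups overlapped. The log2 difference was 0.11 ± 0.064 (SE), beside a median of 0.064 over all tested genes, and 58.4% of tested genes had a smaller absolute difference.

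Glucosidase II removes the inner glucoses of the sugar tree and consists of a catalytic alpha subunit (Ganab) and a beta subunit (Prkcsh) that recognises mannose and retains the enzyme in the ER. Ganab (14376) was at 122, 125, 120.2 and 120.2 FPKM with miR-204, against 122, 117, 116 and 118 FPKM with miR-Ctrl. Prkcsh (19089) was at 122, 118, 120.2 and 112 FPKM with miR-204, against 112, 128, 106 and 107 FPKM with miR-Ctrl. The groups overlapped for both, with log2 differences of 0.044 ± 0.048 and 0.064 ± 0.073 (SE). Their FPKM stood near parity in every library, with a ratio of Ganab to Prkcsh of 1.03 ± 0.041 with miR-204 and 1.05 ± 0.089 with miR-Ctrl (SD, n = 4 each).

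Among the chaperone lectin genes, Calr varied most between libraries. Calr (12317), which encodes the soluble, calcium-binding calreticulin, was at 823, 809, 638 and 652 FPKM with miR-204, against 774, 935, 624 and 703 FPKM with miR-Ctrl. Canx (12330), which encodes the membrane-bound calnexin, was at 143, 162, 136 and 143 FPKM with miR-204, against 146, 158, 137 and 148 FPKM with miR-Ctrl. The groups overlapped for both. Replicates 1 and 2 were the highest for Calr in both groups, and replicate 2 was the highest for Canx. The log2 differences were −0.049 ± 0.15 for Calr and −0.013 ± 0.074 for Canx (SE). For Calr the difference was 0.0039 without both libraries of replicate 2.

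**Figure D2:**
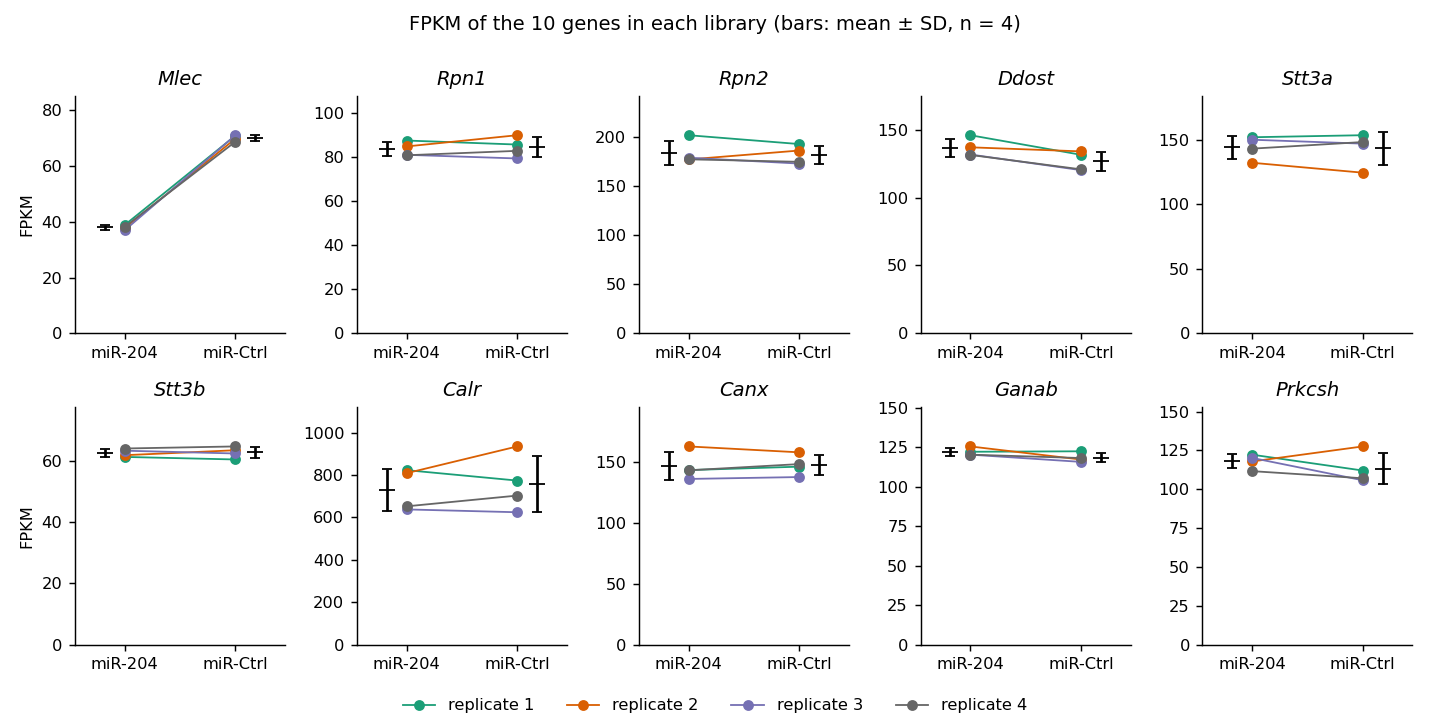
FPKM of each of the 10 genes in the 4 miR-204 libraries (left) and the 4 miR-Ctrl libraries (right), with lines joining libraries of equal replicate number and black bars for mean ± SD (n = 4). Mlec lies near 38.0 FPKM in miR-204 and near 70.1 FPKM in miR-Ctrl libraries, and the other 9 genes overlap between the groups.

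In the test across the 11612 genes that averaged 1 FPKM or more (limma on log2(FPKM + 1), Benjamini-Hochberg adjusted p below 0.05), all 10 genes passed the filter, 1 of them was called lower (Mlec) and 0 were called higher. Of all tested genes, 0.181% were called lower and 0.0258% higher. In the fit with the replicate number as a block, again only Mlec of the 10 was called, beside 2.83% lower and 12.4% higher over all genes. The groups did not overlap in 1 of the 10 genes and in 5.9% of all tested genes. Mlec was chosen on this contrast, so nothing is read from these counts. The 9 other genes had a median log2 difference of 0.012 and a range of −0.049 to 0.11, against a median of 0.064 over all tested genes. With libraries centred on their median, 9 of the 10 genes lay below 0, and Ddost was at 0.044. A missed threshold does not show that a gene was unchanged: the SE of the 9 ranged up to 0.15 on the log2 scale.

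**Figure D3:**
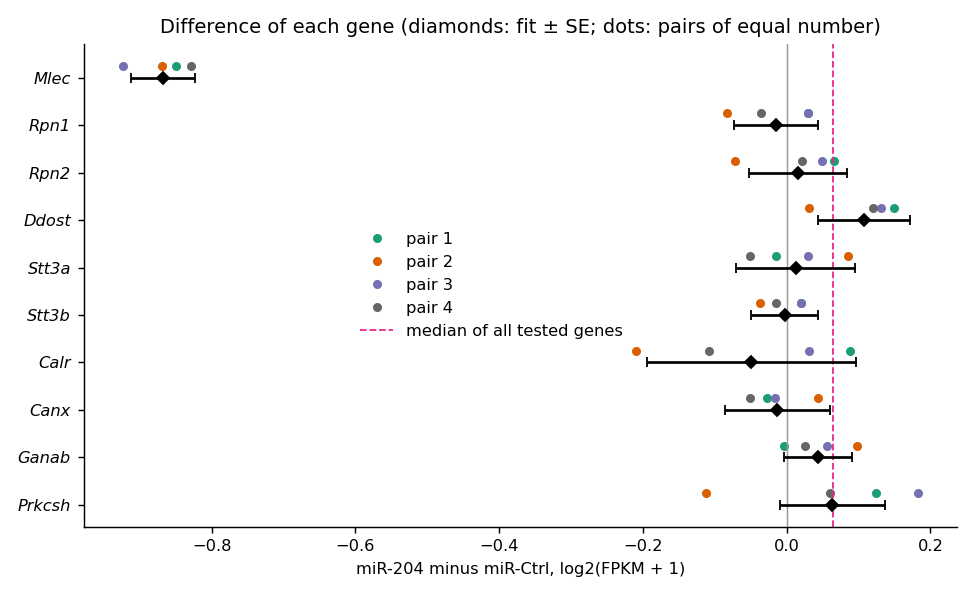
Difference between miR-204 and miR-Ctrl of each gene on the log2(FPKM + 1) scale. Black diamonds with bars are the fitted difference ± SE over 8 libraries, coloured dots the differences within pairs of equal replicate number, and the dashed line the median of all tested genes (0.064). Mlec lies at −0.87, and the other 9 genes lie between −0.049 and 0.11.

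Set against its partners within each library, Mlec changed its place in the order of levels. Per length, Calr was the most abundant of the 10 at a mean of 745 FPKM over 8 libraries, followed by Rpn2 (183), Canx (147), Stt3a (144), Ddost (132), Ganab (120.1), Prkcsh (116), Rpn1 (84.0), Stt3b (62.9) and Mlec (54.0). Neighbours in this order from Canx down to Prkcsh overlapped in their ranges over libraries, as did Stt3b and Mlec, while Calr, Rpn2 and Rpn1 overlapped with no neighbour. Mlec was at 0.582 to 0.632 times the level of Stt3b in miR-204 libraries, and at 1.06 to 1.17 times in miR-Ctrl libraries, so it stood below Stt3b in 4 of 4 miR-204 libraries and above it in 4 of 4 miR-Ctrl libraries. The ratio of Mlec to Rpn1 was 0.455 ± 0.0135 with miR-204 and 0.832 ± 0.0487 with miR-Ctrl (SD, n = 4 each). For each of the 9 genes the ratios did not overlap between the groups, which follows from the difference in Mlec itself.

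**Figure D4:**
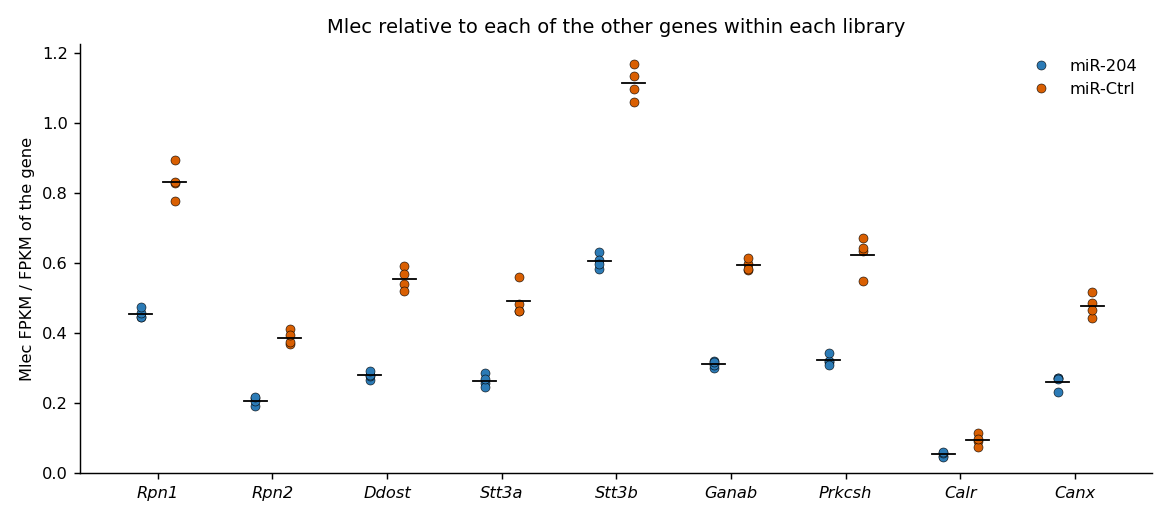
FPKM of Mlec divided by FPKM of each other gene in the same library. Dots are libraries and black lines group means, with miR-204 left of miR-Ctrl for each gene; the ratio to Stt3b lies between 0.582 and 0.632 with miR-204 and between 1.06 and 1.17 with miR-Ctrl.

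The spread within groups differed widely among the 10 genes. A small spread also favours a call in the comparison on which Mlec was chosen, so its values are a description. The coefficient of variation of Mlec was 2.09% over the 4 miR-204 libraries and 1.54% over the 4 miR-Ctrl libraries. Only 1.59% and 0.431% of tested genes varied as little in the same libraries, whose medians were 10.5% and 11.9%. Ganab (2.01% and 2.43%) and Stt3b (2.03% and 2.88%) were similarly even. Calr, at 13.6% with miR-204 and 17.4% with miR-Ctrl, was the only 1 of the 10 above the median in both groups. The coefficient falls with level: among the 2058 genes with a mean of 30 to 900 FPKM the medians were 8.56% and 10.3%.

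The replicate 2 libraries, which stood apart in both groups, bore unequally on the genes. Across all tested genes, 38.4% were highest and 12.6% lowest in replicate 2 of both groups. Of the 10 genes, only Canx was highest there in both groups and only Stt3a lowest in both. Stt3a in replicate 2 was at 0.891 times the mean of the other 3 libraries with miR-204 and at 0.832 times with miR-Ctrl. Calr in replicate 2 was at 1.15 times the mean of the others with miR-204 and at 1.34 times with miR-Ctrl. Mlec in replicate 2 was at 0.992 times with miR-204 and at 0.994 times with miR-Ctrl, so its values hardly differed from those of the other replicates.

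Promoters of ER chaperone genes are known to carry the ER stress response element (ERSE), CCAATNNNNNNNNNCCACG, which the factor ATF6 uses together with NF-Y. The ERSE was found on either strand in 0.119% of 32851 RefSeq promoter windows (250 bases before to 50 after a gene's start, GRCm38.p6). All 10 genes had a window, and 2 held an ERSE, namely Calr and Canx. The elements are shown with the fixed bases in capitals and in the gene's direction, so that a match on the opposite strand reads as its reverse complement, and the position of the first base is counted from the gene's start. Those of Hspa5 and Pdia6, other ER folding genes, stand beside them for comparison and were picked after their matches and values were seen.
Calr, window chr8:84846882-84847181, minus strand, first base at -162: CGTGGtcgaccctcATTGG
Canx, window chr11:50325624-50325923, minus strand, first base at -145: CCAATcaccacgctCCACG
Hspa5, window chr2:34771840-34772139, plus strand, first base at -65: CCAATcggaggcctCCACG
Pdia6, window chr12:17266339-17266638, plus strand, first base at -98: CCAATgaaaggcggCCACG

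The related motifs ERSE-II (ATTGG, any base, CCACG, in 0.0365% of windows) and UPRE (TGACGTGG, in 0.676%), searched on both strands, were in none of the 10 genes' windows. Of 13 other ER folding genes, 11 had a window and 6 of these held an ERSE, and 9 of 69 list genes with a window did in all. A gene was counted once per motif. Alg12 and Creld2, whose windows overlap on opposite strands, hold the same stretch, which was counted for both genes. Hspa5, which encodes the chaperone BiP, was at 537 ± 18.5 FPKM with miR-204 and 545 ± 42.3 FPKM with miR-Ctrl. Its log2 difference was −0.018 (limma adjusted p = 0.979). The replicate 2 libraries were the lowest of each group for Hspa5, at 511 FPKM with miR-204 and 500.4 FPKM with miR-Ctrl. A match is a description of the letters in the window and no evidence that a factor binds it.

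The genes whose 8 values followed those of Mlec most closely were chosen by Pearson correlation of log2(FPKM + 1) among 7989 other genes averaging 5 FPKM or more. They were Ssrp1 (r = 0.991), Zfyve20 (0.981, named Rbsn in GENCODE), Lhfp (0.977), Smim13 (0.977) and Mmgt1 (0.975), each over 8 libraries that share their replicate numbers. Ssrp1, a subunit of a histone chaperone, was at 42.6 ± 1.43 FPKM with miR-204 and 65.2 ± 2.66 FPKM with miR-Ctrl. Mmgt1, a subunit of the ER membrane complex, was at 7.33 ± 0.446 FPKM with miR-204 and 12.4 ± 0.921 FPKM with miR-Ctrl. The likeness rests mainly on the group difference that also chose Mlec, so it is given with no test. Each of the 5 had an 8mer in its 3′ UTR, against 6.93% of tested genes with an annotated 3′ UTR. Because the 5 were picked by likeness to Mlec, nothing is read from this count. Their 8mers are shown here for comparison with that of Mlec.
Ssrp1, chr2:85047089-85047096, plus strand: aaacaatttaatAAAGGGAAatgactttgg
Zfyve20, chr6:92188354-92188361, minus strand: gatagaaaacagAAAGGGAAgttatgtagc
Lhfp, chr3:53261611-53261618, plus strand: tattcattttgtAAAGGGAAaaaaaagtac
Smim13, chr13:41272919-41272926, plus strand: ccatatagaaatAAAGGGAAtttaaaccaa
Mmgt1, chrX:56587924-56587931, minus strand: ctctataggtgtAAAGGGAAtcactgcgga

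Around the 10 genes, 85 further genes of N-glycan assembly, trimming, degradation and folding were listed, of which 80 reached a mean of 1 FPKM. By limma, 0 of the 80 were called higher or lower, while 4 were higher and 3 lower at an unadjusted p under 0.05. Of all 11612 tested genes, 763 were higher and 235 lower at that unadjusted level. In the fit with the replicate block, 9 of 80 were higher and 3 lower, beside 12.4% and 2.83% of all tested genes. With the block and centred libraries, 2 were higher and 5 lower, beside 4.99% and 4.32% of all tested genes. The groups did not overlap in 4 of the 80 and in 5.9% of all tested genes. Nothing particular to the lists is read from these counts. The median log2 difference of the 80 was 0.058, against 0.064 over all genes. Each adjusted p that follows comes from limma, adjusted by Benjamini-Hochberg over the 11612 genes.

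Among 7 other oligosaccharyltransferase subunits, Tusc3 rose in the blocked fit, in which 12.4% of all tested genes did. Tusc3, an oxidoreductase subunit of the Stt3b complex, was at 55.5 ± 3.47 FPKM with miR-204 and 49.1 ± 5.91 FPKM with miR-Ctrl (log2 difference 0.18, adjusted p = 0.644, blocked 0.0469). It did not pass with centred libraries. Of 6 tested genes of glucose trimming and the lectin folding cycle, 0 passed either fit by limma. In the blocked fit, 1 was higher and 1 lower at an unadjusted p under 0.05. Of all 11612 tested genes, 3472 were higher and 665 lower at that level in the same fit. Pdia3, the disulfide isomerase that works with calnexin and calreticulin, was at 345 ± 33.9 FPKM with miR-204 and 323 ± 39.1 FPKM with miR-Ctrl (0.094, adjusted p = 0.858, blocked 0.163). Ppib, a prolyl isomerase, was at 275 ± 19.7 FPKM with miR-204 and 303 ± 16.2 FPKM with miR-Ctrl (−0.14, adjusted p = 0.646, blocked 0.0601), and it passed the blocked fit with centred libraries.

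The sugar tree is built on the lipid dolichol before transfer, and 23 genes of this assembly were tested. In the blocked fit 1 fell and 1 rose, beside 2.83% and 12.4% of all tested genes. Alg10b, which in yeast and human adds the outermost glucose, was at 5.90, 8.39, 6.19 and 7.86 FPKM with miR-204, against 10.1, 11.2, 10.7 and 12.6 FPKM with miR-Ctrl. The groups did not overlap, and the log2 difference was −0.59 ± 0.12 (SE, adjusted p = 0.140, blocked 0.00591). Alg2, a mannosyltransferase, rose in the blocked fit (0.16, adjusted p = 0.763, blocked 0.0379) but did not pass with centred libraries.

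Among 15 tested genes of mannose trimming and ER-associated degradation, Man1b1 (0.16, blocked adjusted p = 0.0305), which trims mannose, and Edem2 (0.17, blocked adjusted p = 0.0378), which marks glycoproteins for degradation, rose in the blocked fit. Neither passed with centred libraries. Of all tested genes, 12.4% rose and 2.83% fell in the blocked fit. Sel1l, the adaptor of the degradation ubiquitin ligase, was at 29.9 ± 3.05 FPKM with miR-204 and 34.1 ± 3.06 FPKM with miR-Ctrl and fell in the blocked fit (−0.19, adjusted p = 0.629, blocked 0.0186). With the block and centred libraries Sel1l was again lower, and so was Edem1 (−0.15, adjusted p = 0.0434), beside 4.32% of all tested genes. Edem1, named after its values were seen, had passed neither fit without centring (−0.091, adjusted p = 0.838, blocked 0.112). Among 13 other ER folding genes, P4hb fell and Ero1lb rose in the blocked fit. P4hb, a disulfide isomerase that is also a subunit of collagen prolyl hydroxylase, was at 553, 524, 497 and 479 FPKM with miR-204, against 647, 686, 596 and 598 FPKM with miR-Ctrl. Its groups did not overlap, and its log2 difference was −0.30 ± 0.077 (SE, adjusted p = 0.260, blocked 0.0115). Ero1lb, an oxidase of these isomerases, was at 1.90 ± 0.20 FPKM with miR-204 and 1.47 ± 0.184 FPKM with miR-Ctrl (0.23, adjusted p = 0.505, blocked 0.0369). Its groups did not overlap, and it did not pass with centred libraries.

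Further along the route, 1 of 4 tested ER to Golgi cargo lectin genes and 3 of 12 Golgi N-glycan processing genes rose in the blocked fit, in which 12.4% of all tested genes did. Mcfd2, the partner of the cargo lectin Lman1, was at 52.3 ± 4.57 FPKM with miR-204 and 41.2 ± 2.95 FPKM with miR-Ctrl, without overlap (0.34, adjusted p = 0.241, blocked 0.00750). Mgat4a, a branching N-acetylglucosaminyltransferase, was at 17.4, 8.92, 20.4 and 17.6 FPKM with miR-204, against 14.0, 5.41, 15.6 and 13.0 FPKM with miR-Ctrl (0.43, adjusted p = 0.787, blocked 0.0116). It was higher in 4 of 4 pairs, and both replicate 2 libraries were low. Mgat4b (0.21, blocked adjusted p = 0.0250) and Man2a2 (0.18, blocked adjusted p = 0.0281) did not pass with centred libraries.

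All 3 listed genes that fell in the blocked fit had a 7mer match to the seed in their 3′ UTR, and 1 of the 9 that rose had one. A 7mer or 8mer was present in 19 of all 80 tested (23.8%). Longer UTRs hold more words of any kind. Those of Alg10b and Sel1l had 5897 and 3801 bases and that of P4hb 885, against a median of 1190.5 over the tested genes. Of the 5 that were lower with the block and centred libraries, 4 had a 7mer (Alg10b, P4hb, Sel1l and Edem1) and Ppib had no match. The 4 list genes with an 8mer, Alg11, Dpm1, Nus1 and Man1c1, named after their values were seen, passed neither fit and had log2 differences of 0.15, 0.083, 0.14 and 0.022. Nothing is read from these counts of matches. The matches of the 3 genes that fell in the blocked fit are shown because they can be set beside those of Mlec.
Alg10b, 7mer-A1, chr15:90232617-90232623, plus strand: ttacatgaagtgAAGGGAAatacgcaacca
P4hb, 7mer-m8, chr11:120560987-120560993, minus strand: tttcaattttggAAAGGGAtctctgtccag
Sel1l, 7mer-m8, chr12:91809270-91809276, minus strand: actcttattttaAAAGGGAttattgatcgg

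**Figure D5:**
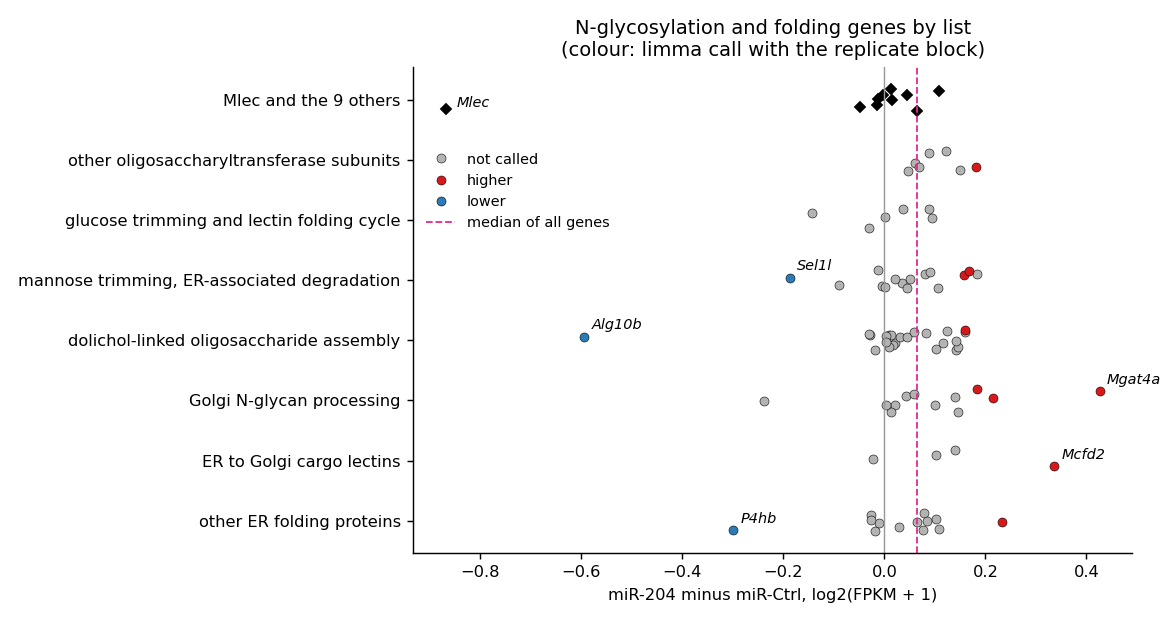
Difference between miR-204 and miR-Ctrl on the log2(FPKM + 1) scale for the 80 tested list genes, 1 dot a gene, coloured by the limma call with the replicate block, with Mlec and the other 9 genes as diamonds in the top row. The dashed line is the median of all tested genes (0.064). Alg10b (−0.59), P4hb (−0.30) and Sel1l (−0.19) are the lower calls.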

How the data were processed

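RNA of chondrocytes was measured in 8 libraries as 1 FPKM value per gene and library, in the authors' deposited table. Libraries came from a stranded mRNA kit, per the labels' protocols. TopHat, Cufflinks 2.2.1 and mm10 are named in the submitters' processing notes; annotation, Cufflinks mode and filters were not given in the sources used here. Because FPKM is no count, no count model was applied, and read totals are unknown.

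All genes averaging 1 FPKM or more entered limma 3.58.1 (R 4.3.3) as log2(FPKM + 1), with a trend in the prior variance, a two-sided test and Benjamini-Hochberg adjustment at 0.05. The p-values speak only to the spread among these 8 libraries. Fold changes on this scale understate changes of low genes. The alternatives were the replicate block, median centring, quantile normalization, a pseudocount of 0.1, no filter and left-out libraries. The scripts were tested on simulated data. Symbols turned into dates or missing were restored through the Entrez identifier.

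The 10 genes, the lists and the naming rule were all chosen with earlier results of these data known. Named list genes were up to 4 past the threshold without the block, else with it, else the 2 of highest mean; the 5 genes most like Mlec were also named. Numbers paired the samples: deviations from group means correlated between libraries of equal replicate number at r = 0.44, 0.82, 0.76 and 0.62 across genes. Each of the 8 libraries correlated best with its own number. This pairing is read from the values, as the labels hold a number and no shared source. Seed matches were searched in the longest GENCODE M21 3′ UTR, which may differ from the RefSeq models behind the FPKM values.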

Additional observations from a re-analysis of the deposited data

Results flagged for a closer look

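Rpn2 in miR-204 replicate 1 was at 202.1 FPKM, above the other 3 miR-204 libraries, which lay between 177 and 179 FPKM. It was the only 1 of 20 sets of 4 values (10 genes in 2 groups) whose extreme library stood this far from the rest, and chance flags about 1 set in 20. Without this library the log2 difference of Rpn2 was −0.030, against 0.016 with it.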

How the results depend on the processing

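The log2 difference of Mlec was between −0.94 and −0.86 over 16 alternatives. It was −0.93 for centred libraries (with and without the replicate block) and −0.94 for quantile normalization. Mlec was called lower under each alternative, but it was chosen on this contrast, so nothing is read from these calls. With 1 library per group and number, the replicate block cannot move a difference, and it changed no call among the 10 genes. Ddost was called higher when the block was used without both replicate 2 libraries (log2 difference 0.13), the only call among the other 9 genes in any setting. In that setting 2781 of all 11612 tested genes were called higher, so nothing is read from this call. Differences of these 9 genes were small enough that 8 of them changed sign under at least 1 alternative, Ddost excepted. The counts over all genes, 3 higher and 21 lower, were 1436 and 329 with the replicate block, 8 and 55 with centred libraries, 7 and 66 with quantile normalization, and 579 and 502 with the block and centring. Without a filter they were 0 and 9 by limma, with 1123 higher and 357 lower at an unadjusted p under 0.05. With the block and without replicate 2 they were 2781 and 522. Leaving out 1 library gave 0 to 4 higher and 1 to 16 lower genes by limma, with 486 to 1503 higher at an unadjusted p under 0.05. Among the 80 list genes, 0 higher and 0 lower became 9 and 3 with the block and 2 and 5 with the block and centring. They became 21 and 4 with the block and without replicate 2, beside 2781 and 522 of all 11612 tested genes. Lower calls were 1 with centring and 2 with quantile normalization. Nothing particular to the lists is read from these counts. The causes of these shifts were not tested. Values of low genes are less precise in both shallower replicate 2 libraries.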
